A study of Mus musculus with 12 samples.

Results

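Fabp7, Fabp5 and Fabp3 encode the fatty acid binding proteins of the brain, and all 3 genes were found by symbol among the 21878 genes of each table. They were followed through 12 hippocampal RNA-seq libraries from mice, 3 in each of 4 groups: wild type (WT) by Day, Presenilin-1/2 conditional knockout (DKO) by Day, WT at Night and DKO at Night. Mice were killed under pentobarbital at 9 in the morning or 9 in the evening, and the series text does not tie either hour to Day or Night in words. Presenilins are the catalytic subunits of gamma-secretase, the membrane protease that cleaves Notch and the amyloid precursor protein. No source used here gives the Cre driver of the conditional allele or the age, sex and light schedule of the mice. The labels do not say whether the libraries of a group came from separate animals, so p-values measure the spread between libraries.

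Fatty acid binding proteins are small intracellular proteins whose beta-barrel encloses a long-chain fatty acid, which they carry between membranes, lipid droplets, mitochondria and the nucleus. FABP7 (brain lipid binding protein) is the form of radial glia, neural stem cells and astrocytes, favours docosahexaenoic acid, and is known as a Notch target and as a transcript that cycles over the day in astrocytes. FABP5 (epidermal form) occurs in neurons, glia and endothelium, hands retinoic acid to PPAR-delta and carries endocannabinoids to their breakdown. FABP3 (heart form) is the form of mature neurons and favours arachidonic acid.

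Each gene has 4 exons and lies on the plus strand of GRCm38.p6, the build named in the submitters' processing notes. Fabp7 (gene ID 12140) spans chr10:57784923-57788450, Fabp5 (gene ID 16592) spans chr3:10012585-10016610 and Fabp3 (gene ID 14077) spans chr4:130308738-130315463 in RefSeq. Fabp3 overlaps Gm10570 and Zcchc17 on the opposite strand. The library kit keeps strand, but whether strand was used in the counting is not given. Among annotated GENCODE transcripts, 5 processed pseudogenes matched Fabp5 and 1, Fabp3-ps1, matched Fabp3 at 90% identity or more over at least 100 bases. No such copy matched Fabp7, so reads shared with a copy could touch the values of Fabp5 and Fabp3.

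The sequences before the first annotated transcript base are shown for the member whose level moved with time and for one whose level did not pass the test. They come from RefSeq's promoter table for GRCm38.p6, which holds 2 of the 3 genes, and are written 5′ to 3′ on the gene's strand. Capitals mark matches to 4 words searched on both strands of the 300-base windows: AGGTCA, the half-site of REV-ERB and ROR receptors, the E-box CACGTG of CLOCK and BMAL1, the D-box TTATGTAA of DBP, and TGGGAA, the core bound by the Notch effector RBPJ.
Fabp7 chr10:57784673-57784880: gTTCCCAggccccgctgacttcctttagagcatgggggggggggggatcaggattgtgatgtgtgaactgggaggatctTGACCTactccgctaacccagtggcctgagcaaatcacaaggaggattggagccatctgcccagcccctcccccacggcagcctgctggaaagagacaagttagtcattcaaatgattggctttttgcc
Fabp3 chr4:130308488-130308594: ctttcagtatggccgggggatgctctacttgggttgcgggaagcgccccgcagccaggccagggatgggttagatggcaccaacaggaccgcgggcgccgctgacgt
The Fabp7 window held TGACCT, the reverse complement of the REV-ERB and ROR half-site, at chr10:57784752-57784757. It also held TTCCCA, the reverse complement of the RBPJ core, at chr10:57784674-57784679. The matches begin 171 and 249 bases before the RefSeq start, and none of the 4 words was in the Fabp3 window. Across 27025 mouse promoters of the same length, 16.0% held the half-site word, 25.5% the RBPJ core, 7.24% the E-box and 0.955% the D-box. These matches describe letters, and no binding was measured here.

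All 3 genes were well expressed. The unit FPKM was read from the values and is not named by a label. FPKM divides the fragments of a gene by its length and by the library's mapped total, which allows levels of different genes to be set side by side. Fabp5 was the highest, with a mean over the 12 libraries of 52.4 FPKM, above 96.0% of the 12689 genes that passed the filter on low values. Fabp3 followed at 32.6 FPKM, above 93.1% of those genes, and Fabp7 at 19.98 FPKM, above 87.6%. The spread ran the other way. The highest Fabp7 library was 2.78 times the lowest, against 1.63 times for Fabp5 and 1.29 times for Fabp3. On the log2 scale, the SD of Fabp7 over the libraries exceeded that of 99.3% of the genes, the SD of Fabp5 that of 87.1% and the SD of Fabp3 that of 69.7%.

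The rest of the family was low. Of 12 other intracellular lipid-binding genes, Fabp2, Fabp6 and Fabp9 were listed at 0 in all 12 libraries, and Fabp1, Fabp4, Fabp12, Pmp2, Rbp2 and Rbp7 reached at most 0.194 FPKM. The retinoic acid carriers Crabp1 (0 to 3.39 FPKM) and Crabp2 (1.29 to 3.48 FPKM) passed the filter on low values.

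Several facts of the series bear on what follows. Psen2 was 0.275 to 0.594 FPKM in the 6 DKO libraries against 1.47 to 3.64 FPKM in the 6 WT libraries. Summed FPKM of 10 choroid plexus markers ranged from 78.1 to 3296 and was lowest in Day DKO replicate 2. Night WT replicate 1 stood apart in the Y-linked gene Ddx3y, at 0.0225 FPKM against 6.83 to 8.56 FPKM in the other 11 libraries. The Y-linked genes Eif2s3y, Kdm5d and Uty were at 0.00609, 0 and 0.00224 FPKM in it, and at 1.76 FPKM or more in the other 11. By these genes this library reads as female and the other 11 as male, though no label gives sex. The Fabp7 differences are therefore given also without each of these 2 libraries. Deposited FPKM do not hold read counts. Summed FPKM per library ranged from 151059 to 175692, and steps among the lowest values gave relative depths of 0.908 to 1.06 times that of Day WT replicate 1, from weak peaks in several libraries.

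Fabp7, the astrocyte and radial glia form, was highest by day in DKO hippocampus and lowest at night, in both genotypes. In Day WT libraries it was 21.5, 21.7 and 21.3 FPKM, and in Day DKO libraries 29.3, 33.6 and 28.8 FPKM. Night WT libraries had 17.8, 14.7 and 12.3 FPKM, and Night DKO libraries 12.5, 14.3 and 12.1 FPKM. Every Day library lay above every Night library, and every Day DKO library above every Day WT library, while the Night groups overlapped. Group means were 30.6 ± 2.61 FPKM (SD, n = 3) in Day DKO, 21.5 ± 0.202 in Day WT, 14.9 ± 2.78 in Night WT and 12.9 ± 1.18 in Night DKO. The last pair in that order did not differ beyond the spread between libraries.

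**Figure D1:**
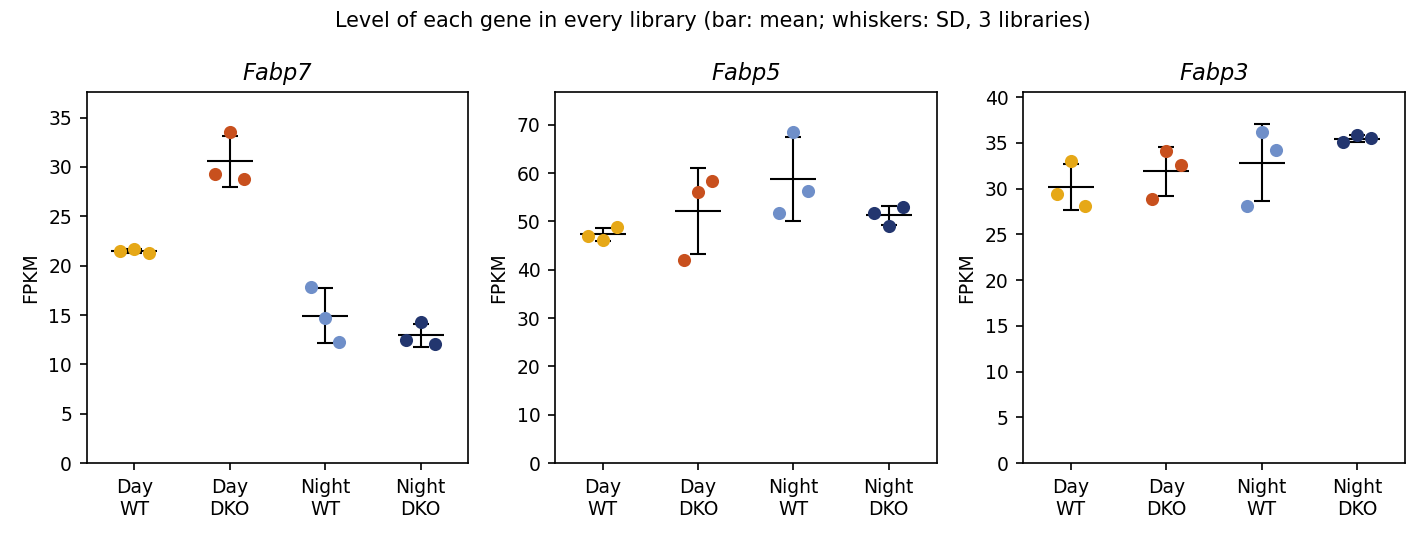
FPKM of Fabp7, Fabp5 and Fabp3 in each of the 12 libraries by group, each axis starting at 0; points are libraries, bars the mean and whiskers the SD of 3 libraries. Fabp7 separates Day from Night, with Day DKO at 28.8 to 33.6 FPKM and both Night groups at 12.1 to 17.8 FPKM, while the Fabp5 and Fabp3 groups lie close together.

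The time of day was compared first, as night minus day on the log2(FPKM + 1) scale with limma, adjusting p-values over all 12689 genes and calling those with an adjusted p under 0.05. In DKO, Fabp7 fell by 1.18 (95% interval -1.41 to -0.95, limma adjusted p = 0.000196), and the mean at night was 0.423 times that by day. In WT it fell by 0.51 (interval -0.74 to -0.28, limma adjusted p = 0.0429), to 0.695 times the mean by day. Of all genes tested, 0.299% were called in DKO and 1.67% in WT in either direction, with 0.118% and 0.158% called lower and 0.181% and 1.51% higher. Fabp7 was thus 1 of 15 genes called lower at night in DKO. Its fall was the largest of all 12689 genes on the log2(FPKM + 1) scale, which understates folds of low genes.

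Without Day DKO replicate 2 the DKO difference was -1.11, and without Night WT replicate 1 it was -1.18, both called by limma.

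Averaged over genotypes, Fabp7 fell by 0.85 from day to night (interval -1.01 to -0.68, limma adjusted p = 0.000141). On the same scale this was the second largest fall among the genes tested. Of these genes 6.07% were called, 5.19% higher and 0.875% lower. Groups of Day and Night libraries did not overlap, as for 3.21% of genes. An exact permutation test that exchanged times within genotype, which borrows nothing from other genes, gave p = 0.005 (two-sided), the smallest that its 400 arrangements allow. It was 1 of 6 such tests on the 3 genes. Without Night WT replicate 1 the averaged difference was -0.91, and without Day DKO replicate 2 it was -0.81, with limma adjusted p of 3.22e-05 and 0.000822. The WT comparison was the less stable: without Night WT replicate 1 the difference was -0.64 with limma adjusted p = 0.0556, without Day DKO replicate 2 it was -0.51 with limma adjusted p = 0.0410, and leaving out 1 of any of the 9 libraries outside Day DKO gave an adjusted p between 0.0509 and 0.135.

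**Figure D2:**
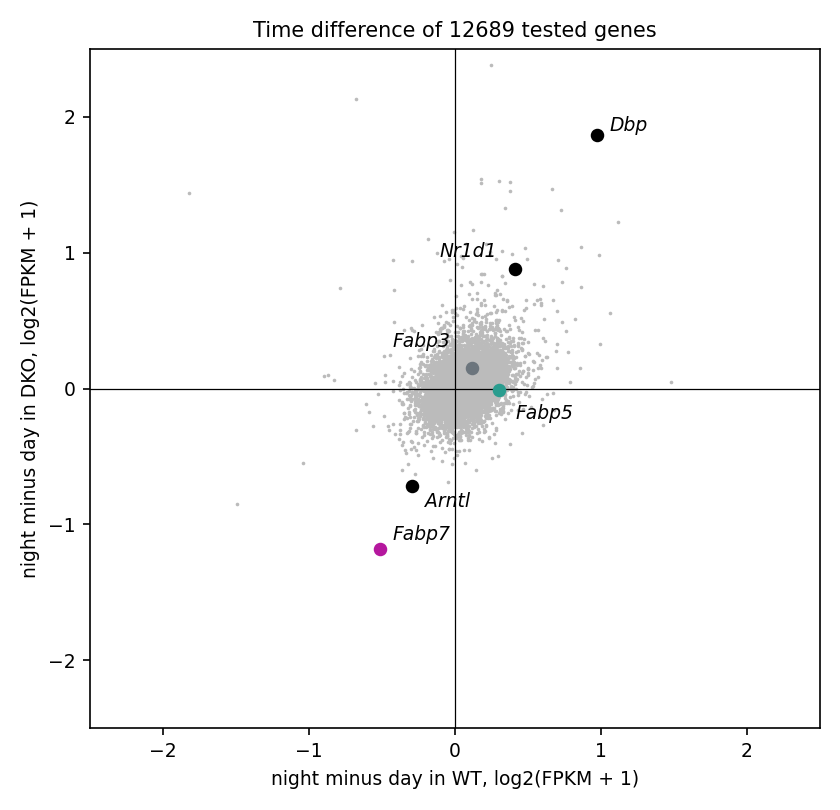
Night minus day difference in log2(FPKM + 1) in WT (horizontal axis) and DKO (vertical axis); grey points are the 12689 tested genes, and the 3 members and 3 clock genes are coloured and named. Fabp7 lies lowest on the DKO axis at -1.18, and Fabp5 and Fabp3 lie within the mass of genes.

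Genotype was compared next. By day Fabp7 rose by 0.49 in DKO (interval 0.25 to 0.72, limma adjusted p = 0.0488), which was 1.42 times the WT mean. It was 1 of 101 genes called higher by day, and 1.18% of genes were called in either direction, 0.796% higher and 0.386% lower. Groups did not overlap for 19.6% of genes in this comparison. The call stood close to its threshold: it was kept in 5 of 22 alternative settings, with differences of 0.38 to 0.52 and adjusted p of 0.0255 to 0.387. Without Day DKO replicate 2, the library with the highest Fabp7 and the lowest choroid plexus markers, the difference was 0.42 with limma adjusted p = 0.172. Without Night WT replicate 1 it was 0.49 with limma adjusted p = 0.0255.

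At night Fabp7 did not pass the test between genotypes. The difference was -0.18 (interval -0.41 to 0.05, limma adjusted p = 0.648), the Night DKO mean was 0.866 times the Night WT mean, and 0.0236% of genes were called. Without Night WT replicate 1, which had the highest Fabp7 of the Night libraries, the difference was -0.05, and without Day DKO replicate 2 it was -0.18. Averaged over times the genotype difference was 0.15 (limma adjusted p = 0.342), or 0.22 and 0.12 without Night WT replicate 1 and Day DKO replicate 2, and the exact permutation test that exchanged genotypes within time gave p = 0.315. In this averaged comparison 1.88% of genes were called, and 1.15% did not overlap between genotypes.

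Whether the time difference itself differed between genotypes was tested as an interaction. The Fabp7 fall was larger in DKO by 0.67 (interval -0.99 to -0.34, unadjusted p = 0.000699), ranking 19th by p among the genes tested, and the limma adjusted p over all genes was 0.435. Without Night WT replicate 1 the interaction was -0.54, and without Day DKO replicate 2 it was -0.60. The interaction did not pass for Fabp7, and 0% of genes were called. By limma, 1099 genes had an unadjusted p under 0.05, and the smallest adjusted p was 0.396.

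**Figure D3:**
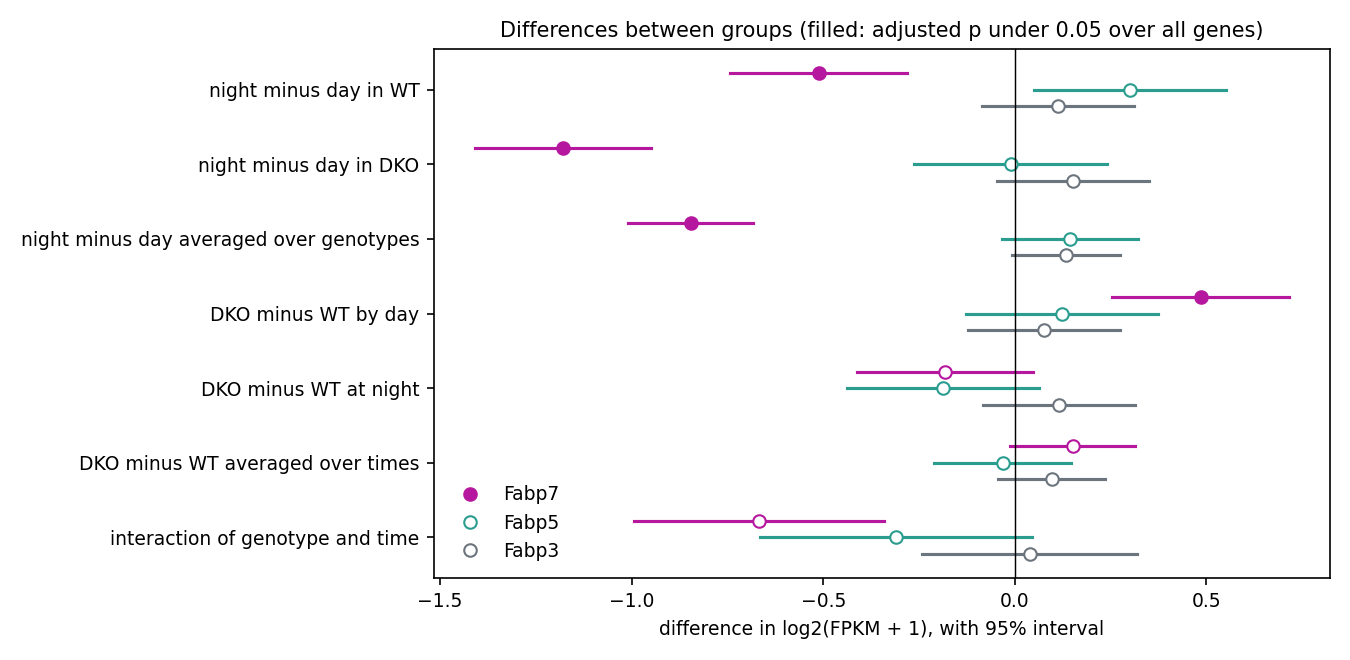
Difference in log2(FPKM + 1) of each member in 7 comparisons, with 95% intervals from limma; filled symbols have an adjusted p under 0.05 over all genes. The 4 filled symbols are all Fabp7: the 3 falls from day to night (-0.51, -1.18 and -0.85) and the higher level in DKO by day (0.49).

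Fabp5, the retinoic acid and endocannabinoid carrier, had no call in any of the 7 comparisons. Day WT libraries had 46.9, 46.2 and 48.8 FPKM, and Day DKO libraries 42.0, 56.1 and 58.3 FPKM. Night WT libraries had 51.7, 68.5 and 56.3 FPKM, and Night DKO libraries 51.7, 49.0 and 52.9 FPKM. The highest value was in Night WT replicate 2 and the lowest in Day DKO replicate 1, and the Day DKO group covered the whole range of Day WT. From high to low, means were 58.9 ± 8.68 FPKM (SD, n = 3) in Night WT, 52.1 ± 8.87 in Day DKO, 51.2 ± 2.00 in Night DKO and 47.3 ± 1.36 in Day WT. Neighbours in that order overlapped except Night DKO and Day WT, which differ in both time and genotype and were not tested against each other.

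The WT night minus day difference of Fabp5 was 0.30 (interval 0.05 to 0.55, limma adjusted p = 0.157), with a mean at night 1.24 times that by day. The WT groups did not overlap, but neither did those of 28.7% of all genes. In DKO the difference was -0.01 (limma adjusted p = 0.984). Between genotypes Fabp5 differed by 0.12 by day and by -0.19 at night, with limma adjusted p of 0.625 and 0.665, and its interaction was -0.31 (limma adjusted p = 0.599). The exact permutation tests gave p = 0.205 for time and p = 0.8 for genotype. With 3 libraries a group, the intervals of the DKO time and day genotype differences, -0.26 to 0.24 and -0.13 to 0.37, bound what could have been missed.

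Fabp3, the neuronal form, was the steadiest of the 3. Day WT libraries had 29.5, 33.0 and 28.1 FPKM, and Day DKO libraries 28.9, 34.2 and 32.6 FPKM. Night WT libraries had 28.1, 36.2 and 34.2 FPKM, and Night DKO libraries 35.1, 35.9 and 35.5 FPKM. Night DKO libraries lay close together and above all Day DKO libraries, which was so for 19.4% of genes in that comparison, and the other pairs of groups compared overlapped. Means were 30.2 ± 2.56 FPKM (SD, n = 3) in Day WT, 31.9 ± 2.70 in Day DKO, 32.8 ± 4.22 in Night WT and 35.5 ± 0.392 in Night DKO. No neighbours in that order differed beyond their spread.

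In the 4 comparisons of 2 groups, Fabp3 differences lay between 0.08 and 0.15, and limma adjusted p between 0.469 and 0.753. The largest, night minus day in DKO, was 0.15 (interval -0.05 to 0.35), a ratio of means of 1.11. Its interaction was 0.04 (limma adjusted p = 0.947), and the exact permutation tests gave p = 0.075 for time and p = 0.19 for genotype.

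Because a ratio within a library does not depend on how libraries were scaled, the balance of the 3 genes was also read within each library. Fabp7 made up 21.7% ± 0.21 (SD, n = 3) of their summed FPKM in Day WT and 26.8% ± 2.59 in Day DKO. At night it made up 14.2% ± 3.55 in WT and 13.0% ± 1.25 in DKO. The share was 18.3% in Night WT replicate 1 and 12.3% and 11.96% in the other Night WT libraries, and 27.1% in Day DKO replicate 2 and 29.2% and 24.1% in the other Day DKO libraries. Fabp5 exceeded Fabp7 by 2.20 times in Day WT and 1.71 times in Day DKO, and by 4.05 and 3.99 times in the Night groups. The Fabp7 share thus moved with time in the same direction as its level, in a measure free of library scaling. It is computed from the same Fabp7 values, so it is not separate support. In WT the share also holds the uncalled Fabp5 difference, with a mean at night 1.24 times that by day.

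**Figure D4:**
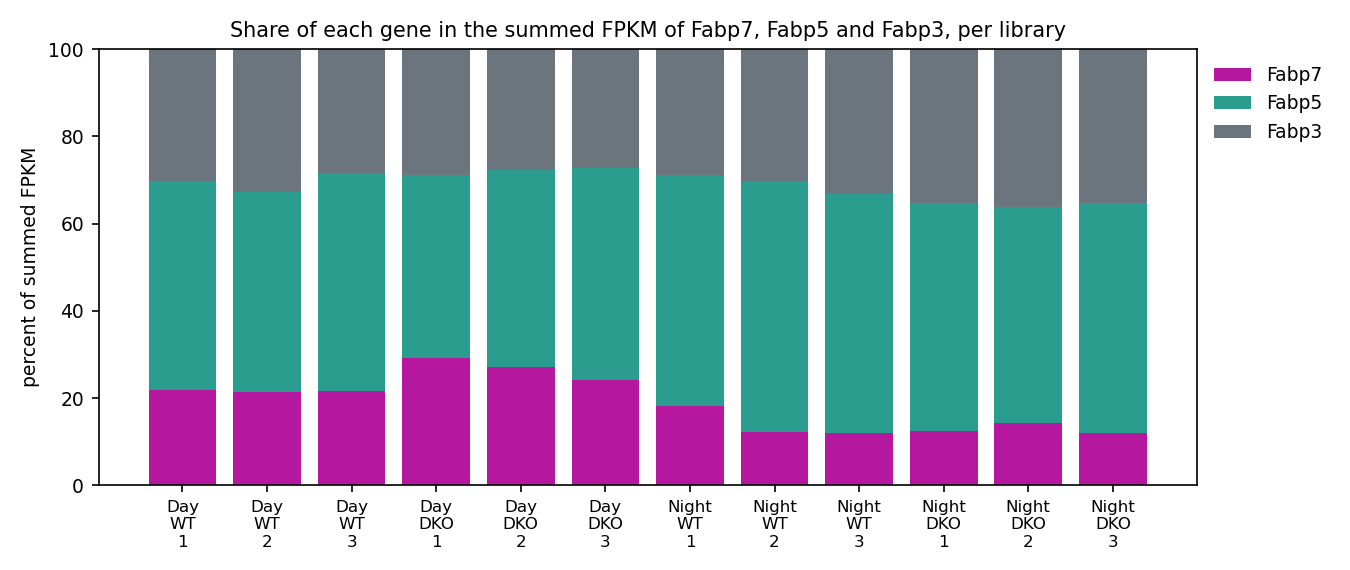
Percent of the summed FPKM of Fabp7, Fabp5 and Fabp3 taken by each gene, 1 bar per library, bars running from 0 to 100%. Fabp7 holds the largest shares in the Day DKO libraries (mean 26.8%) and the smallest in the Night libraries (means 14.2% and 13.0%).

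Bulk tissue cannot tell fewer cells of a type from less RNA per cell, so the markers of the cells that express Fabp7 were set beside it. All 14 astrocyte markers were tested and none was at 0. Their summed FPKM was 535 to 567 in Day WT, 607 to 682 in Day DKO, 562 to 615 in Night WT and 595 to 691 in Night DKO. From day to night, averaged over genotypes, 3 of 14 rose and none fell, where 5.19% of all genes rose and 0.875% fell: Aldh1l1, the folate enzyme that labels astrocytes (0.18), the growth factor receptor gene Fgfr3 (0.22) and the connexin gene Gjb6 (0.32). Their median difference was 0.09, against 0.05 over all genes tested. That count depended on scaling: with libraries rescaled by median-of-ratios factors or by quantile normalization none of the 14 rose and 1 fell, and the medians were 0.03 and 0.01. In WT alone Sox9, the glial transcription factor, fell by 0.42 (limma adjusted p = 0.0429), where 0.158% of all genes were called lower. The Sox9 difference in DKO was -0.02.

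Across the 3 scalings the median night minus day difference of the 14 markers was -0.01 to 0.12 in WT and at most 0.03 in DKO, where Fabp7 fell by 0.51 and 1.18. Fabp7 minus the mean of the astrocyte markers in each library was a measure chosen after the values were seen. Averaged over genotypes, it differed by -0.91 between night and day on the log2 scale (exact permutation p = 0.005, the smallest possible). Averaged over times, it differed by 0.03 between genotypes (exact permutation p = 0.865), a value that joins opposite differences. Its group means were -0.22 in Day WT and 0.13 in Day DKO, and -0.81 in Night WT and -1.11 in Night DKO. With the astrocyte marker level as a covariate, the DKO fall was -1.22 (limma adjusted p = 0.000406) and the day genotype difference 0.38 (limma adjusted p = 0.387). By day, the summed astrocyte markers were higher in every Day DKO library than in every Day WT library, as Fabp7 was. None of the 14 was called on its own by limma by day, where 1.18% of all genes were. Averaged over times 1 of the 14, the filament gene Gfap, was called (0.79 higher in DKO), where 1% of all genes were called higher. Gfap was not called by day or at night alone (limma adjusted p = 0.0984 and 0.339).

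Of 8 radial glia and neural stem cell markers, the other home of Fabp7, 7 were tested. None was called in any comparison by limma, where 0% to 6.07% of all genes were. Averaged over times, 2 of these markers were called lower in DKO with median-of-ratios factors and 1 with quantile normalization. Their summed FPKM was 41.7 to 52.3 by day and 44.8 to 52.4 at night. Microglia markers summed to 74.8 to 86.6 FPKM in Day WT, 117 to 134 in Day DKO, 84.7 to 95.3 in Night WT and 90.1 to 151.1 in Night DKO. By day 1 of 8 was called higher in DKO, where 0.796% of all genes were, and averaged over times 4 of 8, where 1% were. Under either rescaling none was called by day. Averaged over times, 4 were called higher with median-of-ratios factors and 2 with quantile normalization. Mural cell markers summed to 23.5 to 35.0 FPKM in Day WT and 19.9 to 20.5 in Day DKO, and to 27.5 to 33.4 and 21.0 to 22.4 at night. Of these, 3 of 6 were called lower in DKO by day (median -0.56), where 0.386% of all genes were, and 3 of 6 averaged over times, where 0.875% were. Blood markers summed to 111 to 153 FPKM in Day WT, 90.5 to 110 in Day DKO, 171 to 285 in Night WT and 116 to 159 in Night DKO. Averaged over the other factor, 3 of 5 were called lower in DKO, where 0.875% of all genes were, and 5 of 5 higher at night, where 5.19% were. Under either rescaling 1 of 5 was called higher at night. The part of these cells in the Fabp7 differences was not tested. Choroid plexus markers summed to 1179 to 2911 FPKM in Day WT, 78.1 to 1876 in Day DKO, 1428 to 3296 in Night WT and 2004 to 3159 in Night DKO. With their level as a covariate the Fabp7 falls were -1.10 in DKO and -0.50 in WT, and its genotype difference by day was 0.41 (limma adjusted p = 0.317). Their part in the day genotype difference was otherwise not tested.

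Clock genes gave the time of day a reference in the same libraries. REV-ERB proteins, encoded by Nr1d1 and Nr1d2, repress Arntl, which encodes BMAL1, and DBP drives genes through D-boxes. Arntl was 2.19 to 2.32 FPKM in Day WT, 2.89 to 3.41 in Day DKO, 1.59 to 1.69 in Night WT and 1.45 to 1.67 in Night DKO. It ranked the groups as Fabp7 did, high by day and highest in Day DKO. Nr1d1, Nr1d2 and Dbp ranked them in reverse, with Day DKO lowest and Night DKO highest: their means in Day WT, Day DKO, Night WT and Night DKO were 6.55, 5.07, 9.03 and 10.2 FPKM for Nr1d1, 11.9, 8.96, 17.2 and 18.2 FPKM for Nr1d2, and 8.50, 5.07, 17.6 and 20.7 FPKM for Dbp.

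In DKO, Arntl fell by 0.72 from day to night, and Nr1d1, Nr1d2 and Dbp rose by 0.88, 0.95 and 1.87 (limma adjusted p = 0.000194, 0.00662, 0.000319 and 0.000194). In WT, Arntl fell by 0.29 and Nr1d2 and Dbp rose by 0.49 and 0.97, while Nr1d1 differed by 0.41 (limma adjusted p = 0.0429, 0.0339, 0.0262 and 0.0870). Of 19 tested genes of the core clock and its output, 4 rose and 1 fell at night in WT (median 0.16, against 0.07 over all genes). Of all genes, 1.51% were called higher there and 0.158% lower. In DKO 6 rose and 1 fell (median 0.29, against 0.02), where 0.181% of all genes were called higher and 0.118% lower. With median-of-ratios factors or quantile normalization, 2 rose and 1 fell in WT, where Nr1d2 had limma adjusted p of 0.0802 and 0.0986. In DKO 6 rose and 1 fell under either. Counts over all genes under each rescaling are given further below. By day Arntl was also called higher in DKO, by 0.36 (limma adjusted p = 0.0232), where 0.796% of all genes were. It was the only clock gene called between genotypes by day at the deposited scaling.

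**Figure D5:**
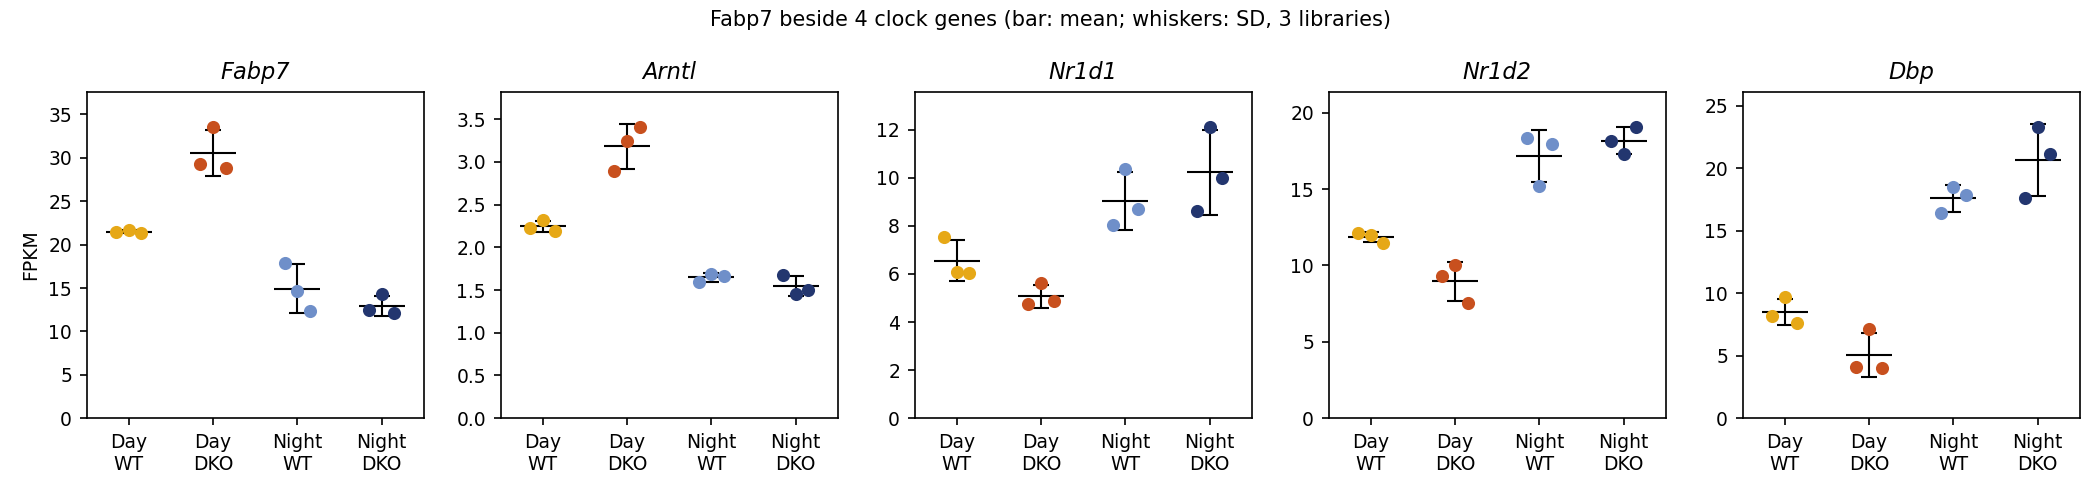
FPKM of Fabp7 and 4 clock genes in each library by group, each axis starting at 0; points are libraries, bars the mean and whiskers the SD of 3 libraries. Fabp7 and Arntl are highest in Day DKO (means 30.6 and 3.18 FPKM), where Nr1d1, Nr1d2 and Dbp are lowest (means 5.07, 8.96 and 5.07 FPKM).

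The genes whose pattern was most like that of each member were sought among 10848 genes by Pearson's r over the 12 libraries, as a description, since libraries of a group share time and genotype. For Fabp7 they were Akt2, an insulin-signalling kinase gene (r = 0.956), Lhfpl2 (0.938), Arntl (0.937), Rbm28 (0.920) and Zmym6 (0.920). With group means removed, r fell to 0.404 for Akt2, 0.607 for Lhfpl2, -0.21 for Arntl, 0.293 for Rbm28 and 0.661 for Zmym6, so the likeness to Arntl lay in the group means.

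For Fabp5 the closest genes were Mccc2, an enzyme gene of leucine breakdown (r = 0.936), Mal2 (0.928), Nipa1 (0.926) and the ribosomal protein genes Rpl36a and Rpl23 (both 0.919). For Fabp3 they were the sulfotransferase gene Sult2b1 (0.931), the sugar kinase gene Nagk (0.917), Gtdc1 (0.905), Acap3 (0.896) and the kinase gene Rps6ka4 (0.891). Unlike for Fabp7, these likenesses stayed with group means removed, at 0.883 to 0.970 for Fabp5 and 0.839 to 0.904 for Fabp3, and so lay among libraries of the same group. Because the Fabp5 and Fabp3 groups lay close together, picking genes by r over all libraries favours such a likeness, so it is a description only. None of the 10 genes was called for time in WT or in DKO, where 1.67% and 0.299% of all genes were.

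Genes of the pathways that fatty acid binding proteins serve were read by list. Of 13 tested genes of fatty acid uptake and activation, none was called for time in WT or DKO, where 1.67% and 0.299% of all genes were. By day 3 rose in DKO, where 0.796% of all genes did. They were Slc27a3, a fatty acid transport and acyl-CoA synthetase gene (0.48), Acsl3, an acyl-CoA synthetase gene (0.34), and Mfsd2a, the carrier of lysophosphatidylcholine-bound docosahexaenoic acid at the blood-brain barrier (0.51). Their limma adjusted p-values were 0.0232, 0.0340 and 0.0475, and the median of the list was 0.13, against 0.04 over all genes. With median-of-ratios factors 2 of them were called, and with quantile normalization 1, Slc27a3. At night their genotype differences were 0.14, -0.10 and 0.30, and none was called. Slc27a3 and Mfsd2a were also called averaged over times, at 0.31 and 0.40, where 1% of all genes were called higher.

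Synthesis, elongation and desaturation of fatty acids (15 tested genes) and PPAR and retinoid X receptors with their targets (12 tested) had no call in any comparison by limma, at the deposited scaling or either rescaling. At the deposited scaling 0% to 6.07% of all genes were called in a comparison. The median night minus day differences of these 2 lists were 0.06 and 0.05 in WT, against 0.07 over all genes. In DKO they were 0.01 and -0.01, against 0.02. Of 18 tested beta-oxidation genes, 1 rose at night in WT, Hadh (0.33), where 1.51% of all genes rose. The median of the list in WT was 0.12, against 0.07 over all genes. Averaged over genotypes 2 of 18, Hadh (0.23) and Acaa2 (0.47), both genes of mitochondrial enzymes, rose, where 5.19% of all genes did. Under either rescaling Hadh was called averaged over genotypes and not in WT, and Acaa2 was not called. Of 8 tested endocannabinoid genes, 1 fell at night in WT, where 0.158% of all genes were called lower. It was Dagla, which makes 2-arachidonoylglycerol, and it fell by 0.31. Averaged over genotypes only Dagla was called, falling by 0.24, where 0.875% of all genes were called lower. Dagla fell in both under either rescaling. The receptor gene Cnr1 was the 1 of 8 called higher in DKO averaged over times, by 0.21, where 1% of all genes were.

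Factors known upstream of Fabp7 were read in the same way. All 13 of the list, which holds Notch1 to Notch3, Rbpj, Hes and Hey genes, Pax6, POU genes Pou3f2 and Pou3f3 and nuclear factor I genes, were tested. None was called in any of the 7 comparisons by limma at the deposited scaling, where 0% to 6.07% of all genes were called. Under either rescaling 1 was called lower at night in WT and averaged over genotypes. The median difference of the list was -0.06 between genotypes by day and 0.04 from day to night in DKO, against 0.04 and 0.02 over all genes. Fabp7 differed by 0.49 and -1.18 there, and the part of these factors in that was not tested.

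In the wider family, Crabp2, which carries retinoic acid to its nuclear receptor, was lower in DKO averaged over times by 0.48 (limma adjusted p = 0.0331). Its means were 2.20 ± 0.751 FPKM (SD, n = 3) in Day WT, 1.55 ± 0.283 in Day DKO, 3.16 ± 0.288 in Night WT and 1.63 ± 0.235 in Night DKO. The Day groups overlapped and the Night groups did not, as for 15.2% of all genes at night. Crabp2 was not called by limma by day or at night alone (adjusted p = 0.306 and 0.205). Averaged over times, 0.875% of all genes were called lower in DKO. Crabp1 was not called in any comparison by limma, with group means of 0.0929 to 1.44 FPKM.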

How the data were processed

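Total RNA libraries from mouse hippocampus were made with a stranded kit that removes ribosomal RNA, per the labels' protocols. The authors deposited 1 table per library with FPKM for 21878 genes; the unit was read from the values, and no source used here names the aligner or counter. The submitters' processing notes name the build GRCm38.p6. No column of another series was present.

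Of these, 12689 genes reached 0.5 FPKM in 3 or more libraries and were tested with limma 3.58.1 (trend, R 4.3.3) on log2(FPKM + 1), so folds of low genes are understated. The fit held 1 mean per group over all 12 libraries, and p-values were two-sided and Benjamini-Hochberg adjusted over all genes in each of 7 comparisons. The script was tested on simulated data. The labels do not say that replicate numbers pair libraries, and not every same-numbered pair deviated together, so the fit has no block. Read depth is unknown, and no count test was run. The 3 genes, the 19 gene lists and the tests were chosen with earlier results of these data known. Genes named beside the 3 are, per list and comparison, at most the 3 called genes with the smallest p, 4 clock genes, and the 5 genes most alike to each of the 3. Alternatives were another pseudocount, other filters, 2 rescalings, the compared groups alone, a replicate block, array weights, a choroid plexus covariate, each library left out and, chosen after seeing the data, an astrocyte covariate. Values of some genes are not reported here.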

Additional observations from a re-analysis of the deposited data

Results flagged for a closer look

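A crossing of genotypes was looked for only in the brain fatty acid binding proteins, the other tested lipid-binding genes and the individually named clock genes. For 3 of these genes every DKO library lay on one side of the WT mean by day and on the other side at night. How common such a crossing was among all genes tested was not counted. Fabp7 was 0.49 higher in DKO by day and 0.18 lower at night on the log2(FPKM + 1) scale, a change of -0.67. The same change was 0.46 for the REV-ERB gene Nr1d2 and 0.89 for the clock output gene Dbp, both lower in DKO by day and higher at night. The difference was tested as an interaction by limma, and none of the 3 passed over all genes: the unadjusted p was 0.000699, 0.00358 and 0.00169, and the adjusted p was 0.435, 0.505 and 0.463.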

How the results depend on the processing

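The fall of Fabp7 from day to night was called under all 22 alternatives in DKO (-1.25 to -1.10) and all 21 averaged over genotypes (-0.91 to -0.78), while its night genotype difference and its interaction were called under none. The WT fall was called under 10 of 22 and lost without a filter (-0.51), with only the groups compared (-0.51) and with the astrocyte covariate (-0.57). The day genotype difference was called under 5 of 22, and lost with a pseudocount of 0.1 (0.50), no filter (0.49), median-of-ratios factors (0.45), quantile normalization (0.39), the choroid plexus covariate (0.41), array weights (0.47) and the astrocyte covariate (0.38). Leaving out 1 library gave 0.42 to 0.52 for the day genotype difference, kept without Night WT replicate 1 or 3 only, and -0.64 to -0.39 for the WT fall, kept without any 1 Day DKO library only; the cause was not tested. Uncalled values changed sign with quantile normalization (Fabp3 by day between genotypes, -0.0255, and over time in WT, -0.00581), with the choroid plexus covariate (Fabp5 over time in DKO, 0.0912) and with 1 library left out (Fabp3 interaction -0.0654 to 0.112, Fabp5 genotype difference averaged over times -0.0755 to 0.0408, Fabp5 over time in DKO -0.157 to 0.0760).

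Counts of called genes moved by over 1.5 times as follows. The 150 by day became 26 without a filter, 96 with quantile normalization, 50 with only the groups compared, 2 with the choroid plexus covariate and 14 with the astrocyte covariate. The 3 at night became 15 with only the groups compared, 5 with the replicate block, 5 with array weights and 9 with the astrocyte covariate. The 212 in WT became 64 without a filter, 57 with median-of-ratios factors, 72 with quantile normalization, 23 with only the groups compared, 418 with array weights and 2 with the astrocyte covariate. The 38 in DKO became 21, 65 and 63 with the first 3 of these, 15 with the choroid plexus and 79 with the astrocyte covariate. The 238 between genotypes averaged over times became 24 without a filter, 101 with the choroid plexus and 46 with the astrocyte covariate. The 770 over time averaged over genotypes became 490 with median-of-ratios factors, 390 with the choroid plexus and 233 with the astrocyte covariate. With 1 library left out the counts ran from 13 to 205, 2 to 38, 1 to 213, 19 to 55, 80 to 255 and 243 to 854, and for the interaction from 0 to 1. The split of higher and lower calls also moved with scaling: deposited values gave 101 and 49 by day, 192 and 20 in WT, 23 and 15 in DKO, 127 and 111 between genotypes averaged over times, and 659 and 111 over time averaged over genotypes. Median-of-ratios factors gave 66 and 65, 23 and 34, 24 and 41, 142 and 172, and 206 and 284; quantile normalization gave 51 and 45, 26 and 46, 24 and 39, 126 and 154, and 231 and 345.

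The replicate block changed no other call: 7 of 18 pairs of libraries with the same number had deviations correlated over 0.1 (-0.116 to 0.247), against 4 of 36 pairs with different numbers. With the block, the Fabp7 differences were 0.49 by day and -1.18 in DKO over time. Fabp7, with 3 libraries a group and unknown depth, cannot be given a counting error.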
